A study of Homo sapiens with 6 samples.

Results

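The genes described here encode 10 proteins of the lysosomal membrane, out of 20037 protein-coding genes on chromosomes 1 to 22, X and Y. They are PIP4P1, a lysosomal phosphoinositide phosphatase, the chloride-proton exchangers CLCN6 and CLCN7, the cation channels MCOLN1 and TPCN1, the cholesterol transporter NPC1, the membrane glycoproteins LAMP1 and LAMP2, the tetraspanin CD63, and CLN3, whose loss causes juvenile neuronal ceroid lipofuscinosis. The members were chosen by name, with earlier results of the same peak lists in view, so the counts and folds at these genes describe them and carry no test. For each gene, every peak entry was taken whose summit lay inside the gene or within 3 kb of its start or end in hg38, and the nearest entry where there was none.

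The lists came from LNCaP and PC3, established lines of human prostate cancer. Chromatin was profiled with an antibody against PRMT5 (Active Motif), with an antibody against METTL3 (Abcam), and with a control library titled IgG whose antibody field names a secondary antibody only. No treatment is labelled. Each line and antibody had 1 library, 6 in all, from 100000 cells and 16 PCR cycles, and the antibody-bound sites were cut by a protein G-Tn5 transposase in permeabilised cells. The authors made 4 peak lists, setting each antibody library against its own line's control. The number of reads is unknown, no replicate spread can be measured, and no expression was measured, so the identity of the lines could not be set against marker genes.

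The lysosomal membrane carries the channels, exchangers and transporters that hold the lumen acidic and move ions, lipids and amino acids out of it, and heavily glycosylated proteins such as LAMP1 and LAMP2 that line its inner face. Many lysosomal genes share a promoter element built on the E-box CACGTG and flanked by further fixed letters, which is known as a binding site of TFEB, TFE3 and MITF. The same core is also known as a site for MYC, MAX and USF proteins. PRMT5 is an arginine methyltransferase that acts on histones and on proteins of RNA splicing, and METTL3 methylates adenosines in RNA. None of the transcription factors named here was measured.

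The promoter stretches that follow are shown because the PRMT5 summits of 5 members lay on or beside them. They run from 100 bases before the annotated gene start to the 20th transcribed base, or from 200 bases before it for LAMP1, 5′ to 3′ on the gene's own strand (RefSeq, GRCh38.p14, whose main chromosomes are numbered as in hg38). Capitals mark CACGTG, which reads the same on both strands.
CLCN6, chr1:11806091-11806210, plus strand: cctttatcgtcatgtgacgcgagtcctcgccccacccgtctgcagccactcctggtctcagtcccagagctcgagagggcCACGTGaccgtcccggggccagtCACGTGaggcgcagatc
CLCN7, chr16:1475009-1475128, minus strand: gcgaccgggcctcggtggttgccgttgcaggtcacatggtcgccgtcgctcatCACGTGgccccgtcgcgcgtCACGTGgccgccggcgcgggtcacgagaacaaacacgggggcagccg
MCOLN1, chr19:7522524-7522643, plus strand: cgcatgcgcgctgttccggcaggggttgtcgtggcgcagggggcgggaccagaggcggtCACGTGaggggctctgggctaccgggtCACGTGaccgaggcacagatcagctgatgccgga
CLN3, chr16:28492063-28492182, minus strand: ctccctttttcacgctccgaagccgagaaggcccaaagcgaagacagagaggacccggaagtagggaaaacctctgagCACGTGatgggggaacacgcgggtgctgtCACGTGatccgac
LAMP1, chr13:113297039-113297258, plus strand: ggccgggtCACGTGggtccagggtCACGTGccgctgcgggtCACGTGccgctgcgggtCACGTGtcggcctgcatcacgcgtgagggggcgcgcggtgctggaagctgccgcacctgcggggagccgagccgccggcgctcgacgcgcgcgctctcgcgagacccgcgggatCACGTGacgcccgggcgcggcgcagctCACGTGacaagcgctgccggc

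The next stretches belong to 2 members that had no PRMT5 entry in either line, over the same span of 100 bases before and 20 from the start. Here the capitals mark the GC box GGGCGG, since neither holds CACGTG.
NPC1, chr18:23586487-23586606, minus strand: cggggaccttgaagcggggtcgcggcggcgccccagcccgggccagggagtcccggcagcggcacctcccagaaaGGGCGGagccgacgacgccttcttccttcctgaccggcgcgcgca
TPCN1, chr12:113221364-113221483, plus strand: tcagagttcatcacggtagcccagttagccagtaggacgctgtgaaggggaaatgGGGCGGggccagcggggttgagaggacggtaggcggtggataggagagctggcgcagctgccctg

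PRMT5 entries lay at 7 of the 10 genes, and METTL3 entries at none of them. In LNCaP, PIP4P1, CLCN6, CLCN7, MCOLN1, CLN3 and LAMP1 had PRMT5 entries, 6 of 10, where 3.08% of all protein-coding genes did by the same rule. In PC3, PIP4P1, CLCN6, MCOLN1, CLN3, LAMP1 and CD63 had them, again 6 of 10, where 4.59% of all genes did. The genes were picked with these lists in view, so nothing is read from the gap to those shares. The METTL3 lists had 0 of 10 in LNCaP, beside 0.389% of all genes, and 0 of 10 in PC3, beside 11.6%. LAMP2, NPC1 and TPCN1 had no entry in any of the 4 lists.

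The entries at these genes numbered 12 in the LNCaP PRMT5 list of 980 and 17 in the PC3 PRMT5 list of 1661. Their fold over the control, as the authors' peak caller gave it, ranged from 3.06 to 60.8 in LNCaP and from 4.03 to 16.5 in PC3. Taking the highest entry of each gene, the median fold was 14.9 in LNCaP, beside 7.28 over the 617 genes with an entry, and 8.08 in PC3, beside 6.12 over 919 genes. Folds were ranked only within their own list, because each list has its own control and depth.

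**Figure D1:**
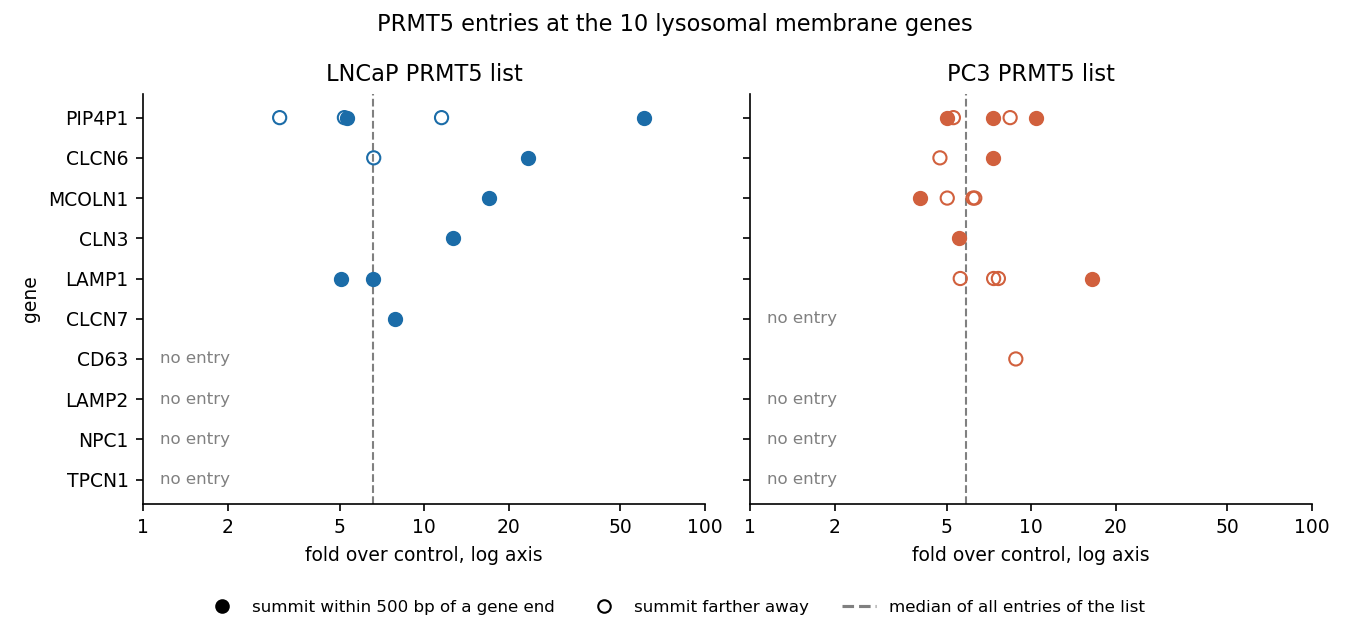
Fold over the control (log axis) of every PRMT5 entry at the 10 genes, LNCaP left and PC3 right; filled points have the summit within 500 bp of a gene end, and the dashed line is the median of all entries of the list. PIP4P1 stands at 60.8 in LNCaP and LAMP1 at 16.5 in PC3, and LAMP2, NPC1 and TPCN1 have no entry in either panel.

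PIP4P1 (chr14:20457681-20461434) had the highest LNCaP fold of the set and the most entries, 5 in each line. In PC3 the highest fold was that of LAMP1, 16.5 against 10.4 for PIP4P1. The PIP4P1 protein removes a phosphate from phosphatidylinositol bisphosphate on the lysosomal surface and takes part in moving lysosomes along microtubules. In LNCaP the entry at chr14:20461441-20462070 had a fold of 60.8 and a −log10 q of 230, and ranked 2nd of 980 by fold. Its summit lay 298 bp beyond the higher-coordinate end of the gene. In PC3 the entry at chr14:20461478-20461895 had a fold of 10.4 and a −log10 q of 80.5, ranked 98th of 1661, and had its summit 202 bp beyond the same end. The LNCaP entry contained the whole PC3 entry, and the summits were 96 bp apart.

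The other 4 entries around PIP4P1 were found in each line too, and each LNCaP entry overlapped its PC3 counterpart. Inside the gene, entries with summits 611 bp (LNCaP) and 428 bp (PC3) from the higher-coordinate end had folds of 5.20 and 7.31, and entries 496 and 372 bp from the lower-coordinate end had folds of 5.31 and 5.02. The latter lay 410 and 286 bp from the end of APEX1, which overlaps that end of PIP4P1. Beyond the higher end, summits at 1099 and 1100 bp, 1 bp apart, had folds of 3.06 and 5.29. The second strongest pair lay 2522 bp (LNCaP) and 2436 bp (PC3) outside the lower-coordinate end, close to the edge of the 3-kb window, with folds of 11.5 and 8.43.

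That last pair lay near the starts of the neighbouring genes APEX1 and OSGEP. The LNCaP summit was 67 bp and the PC3 summit 19 bp from the start of APEX1, which encodes the main endonuclease of base excision repair, and 347 and 433 bp from the start of OSGEP, a tRNA modification gene. It counts for PIP4P1 by distance alone. The APEX1 stretch is shown because it holds 3 copies of CACGTG, in capitals, at 105, 44 and 23 bases before the start. It runs from 120 bases before the start to the 20th transcribed base.
APEX1, chr14:20455106-20455245, plus strand: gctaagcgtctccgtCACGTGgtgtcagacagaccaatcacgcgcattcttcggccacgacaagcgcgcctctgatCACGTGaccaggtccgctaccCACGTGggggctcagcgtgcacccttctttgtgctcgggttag

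**Figure D2:**
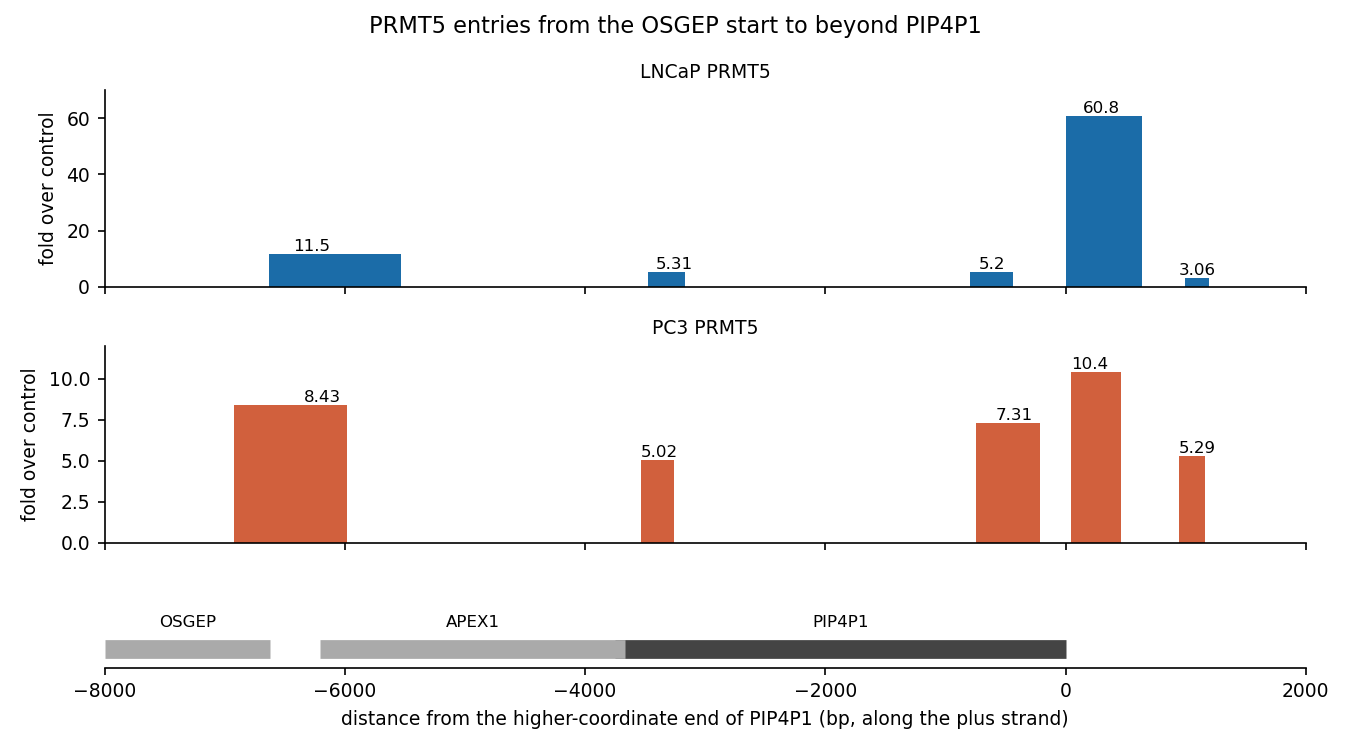
PRMT5 entries over PIP4P1 and its neighbours OSGEP and APEX1 in LNCaP (top) and PC3 (middle); bars span each entry and their height is the fold over the control, on a separate axis for each line, against distance from the higher-coordinate end of PIP4P1. Entries stand at 5 matching places in the lines, with the highest bar, 60.8 in LNCaP and 10.4 in PC3, just beyond that end.

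CLCN6 (chr1:11806191-11843130), a late endosomal exchanger, had an LNCaP entry of fold 23.4 and −log10 q 76.5 at chr1:11805904-11806438, 17th of 980. Its summit lay 45 bp before the gene start. The PC3 entry at chr1:11805986-11806302 had a fold of 7.33 and a −log10 q of 27.2, with the summit 105 bp before the start, and the LNCaP entry covered all of it. A weaker entry of each line lay farther out, 595 bp before the start in LNCaP with a fold of 6.62 and 1431 bp before it in PC3 with a fold of 4.74, and these did not overlap.

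CLCN7 (chr16:1444935-1475028), whose exchanger works with OSTM1 in lysosomes and in the resorbing border of osteoclasts, had a single entry. It was in LNCaP, at chr16:1474986-1475138, with a fold of 7.90, a −log10 q of 9.58 and the summit 9 bp before the gene start. The PC3 PRMT5 list had no entry there, and its nearest lay 93.4 kb away.

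MCOLN1 (chr19:7522624-7534009), the lysosomal calcium-permeable channel mutated in mucolipidosis, had its summits at nearly the same base in both lines. The LNCaP entry at chr19:7522320-7522781 had a fold of 17.0 and a −log10 q of 37.2, 34th of 980, with the summit 7 bp after the start. The PC3 entry at chr19:7522290-7522807 had its summit 5 bp after the start, 2 bp from the LNCaP summit. Its fold was 4.03 and its −log10 q was 19.7. PC3 had 3 further entries, 872 bp before the start, 5684 bp after it and 1130 bp beyond the far end, with folds of 6.21, 5.03 and 6.31. Their −log10 q values, 5.26, 3.30 and 4.69, were all below that of the entry at the start, although 3 of 3 had the higher fold. The first of these further entries was 727 bp from the higher-coordinate end of ZNF358, nearer than to the MCOLN1 start. The last of them was 975 bp from the start of PNPLA6, a lysophospholipase gene.

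CLN3 (chr16:28466653-28492082) had 1 entry in each line, and they overlapped by 221 bp. In LNCaP it had a fold of 12.7 and a −log10 q of 17.6, 87th of 980, and its summit was 38 bp after the start. In PC3 it had a fold of 5.54 and a −log10 q of 4.98, 985th of 1661, and its summit was 71 bp before the start, 109 bp from that of LNCaP. Both summits lay within 500 bp of the start, but they fell on opposite sides of it.

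LAMP1 (chr13:113297239-113323672), an abundant glycoprotein of the lysosomal membrane, had the highest PC3 fold of the set. The PC3 entry at chr13:113296874-113297936 spanned 1063 bp, with a fold of 16.5 and a −log10 q of 41.5, 22nd of 1661. It overlapped LNCaP entries at chr13:113296470-113297339, with a fold of 5.06 and a −log10 q of 17.6, and chr13:113297665-113298052, with a fold of 6.58 and a −log10 q of 6.36. The main summits were 98 bp (PC3) and 97 bp (LNCaP) before the start, 1 bp apart. PC3 had 3 more entries, with summits 1328 bp before the start and 1044 and 2302 bp after it and folds of 7.36, 7.65 and 5.60.

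CD63 (chr12:55723535-55730041), a tetraspanin of late endosomes and exosomes, had no entry at its start. Its PC3 PRMT5 entry, at chr12:55721147-55721387 with a fold of 8.83 and a −log10 q of 9.06, had its summit 2284 bp outside the far end of the gene and inside RDH5, a retinol dehydrogenase gene, 858 bp from that gene's start. It was the member entry nearest to the edge of the window after those at APEX1. The nearest LNCaP PRMT5 entry, outside the window at 7480 bp from the gene, had a fold of 11.3. Its summit lay 9 bp from the lower-coordinate end of BLOC1S1, which encodes a subunit shared by complexes of lysosome biogenesis and positioning. The same summit was 345 bp from the higher-coordinate end of ITGA7.

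LAMP2, NPC1 and TPCN1 lay far from any PRMT5 entry. The nearest was 4.54 Mb (LNCaP) and 5.02 Mb (PC3) from LAMP2 (chrX:120426148-120469349), the partner glycoprotein of LAMP1. It was 811 kb and 10.1 Mb from NPC1 (chr18:23506184-23586506), and 1.21 Mb and 668 kb from TPCN1 (chr12:113221464-113298585). The nearest METTL3 entries were 29.8 kb (CD63) to 816 kb (NPC1) away in PC3. In LNCaP they were 112 kb (LAMP1) to 28.1 Mb (LAMP2) away, and MCOLN1 had none on its chromosome. With unknown depth, a missing entry says only that none passed the caller's threshold.

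PRMT5 entries at these genes were compared between the lines. Because the genes were picked with these lists in view, nothing is read from the gaps to the shares over all entries. Of the 12 LNCaP member entries, 10 overlapped a PC3 member entry, 83.3%, where 298 of all 980 LNCaP entries, 30.4%, overlapped a PC3 entry. Of the 17 PC3 member entries, 9 overlapped, 52.9%, where 17.7% of all PC3 entries did. PIP4P1 alone held 5 of the 10 LNCaP and 5 of the 9 PC3 overlapping entries, among them the pair near the starts of APEX1 and OSGEP. Without PIP4P1, an alternative chosen after seeing the data, 5 of 7 LNCaP entries, 71.4%, and 4 of 12 PC3 entries, 33.3%, overlapped. The overlaps fell at 5 genes, namely PIP4P1, CLCN6, MCOLN1, CLN3 and LAMP1. In the 10 overlapping member pairs the summits lay a median of 91 bp apart and 3 pairs were within 10 bp, and over all 303 pairs the median was 37 bp and 25.4% were within 10 bp. The 3 member pairs, 1 each at PIP4P1, MCOLN1 and LAMP1, were 1 to 2 bp apart, and 33 of all 303 pairs, 10.9%, were within 2 bp.

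Among members with a matched start, CLCN6, MCOLN1 and LAMP1 had several entries in a line. The entry nearest to the start had the smallest q in 5 of 5 such cases. By fold it ranked first in 3 of 5, the exceptions being MCOLN1 in PC3 and LAMP1 in LNCaP, given above. PIP4P1, with 5 entries in each line, had no matched start and is not among these cases. The same shares over all genes with several entries were not computed. The members were picked with these lists in view, so nothing is read from the counts.

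Promoter windows of 300 bases, 250 before and 50 after the start, were matched for 8 of the 10 members and for 15842 protein-coding genes. PIP4P1 and LAMP2 had no window. A PRMT5 summit lay within 500 bp of the start in LNCaP at 5 of the 8, CLCN6, CLCN7, MCOLN1, CLN3 and LAMP1, at 7 to 97 bp, beside 1.3% of all genes with a window. In PC3 it did at 4 of the 8, CLCN6, MCOLN1, CLN3 and LAMP1, at 5 to 105 bp, beside 0.966%. Among genes that had any PRMT5 entry by the 3-kb rule, 40.6% in LNCaP and 21.7% in PC3 had a summit this close to the start. All 5 such members did in LNCaP, and in PC3 4 of 5, CD63 being the other.

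**Figure D3:**
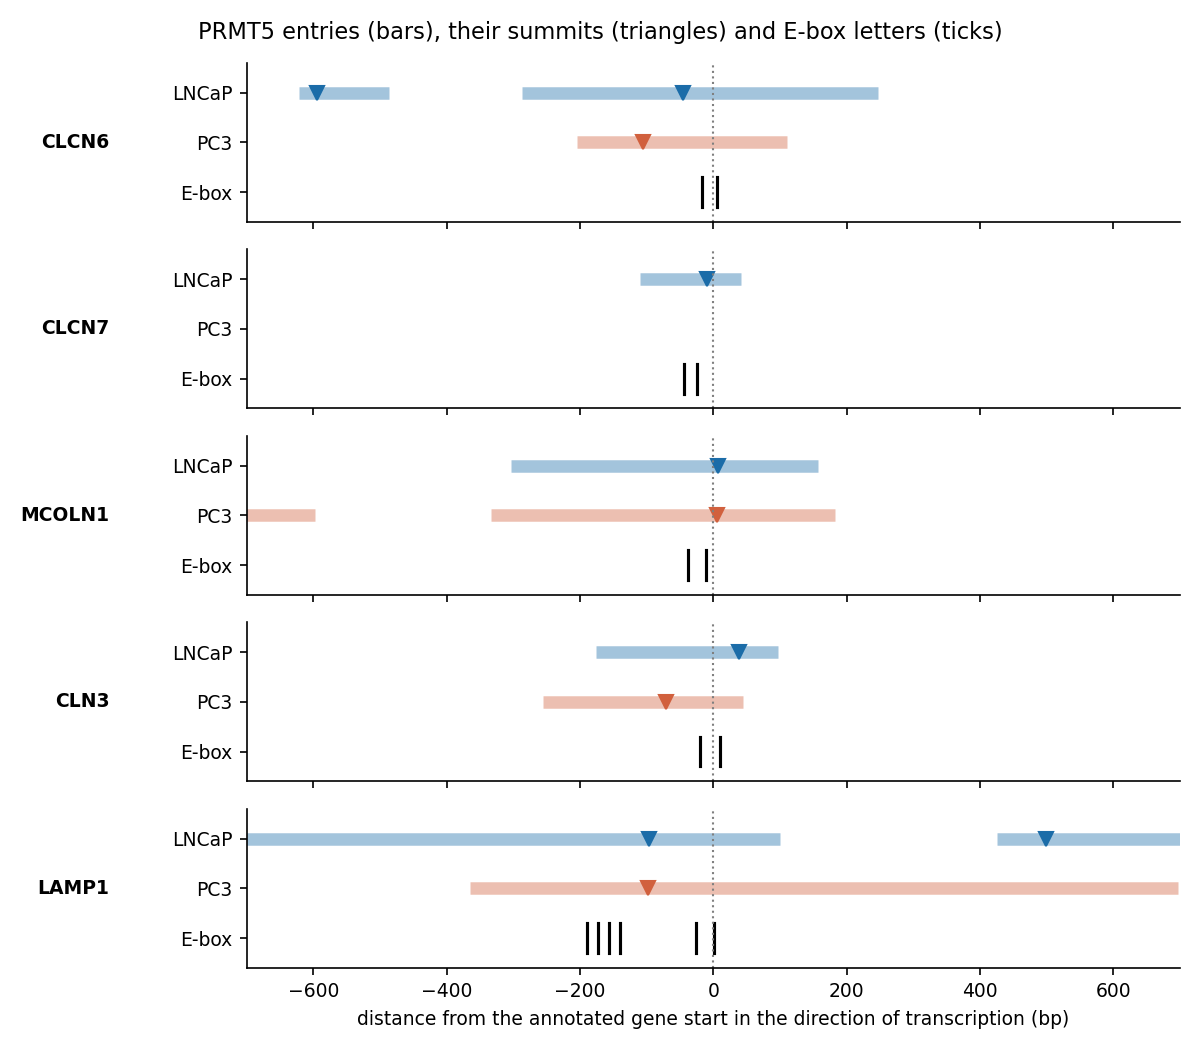
PRMT5 entries (bars) and summits (triangles) of LNCaP (blue) and PC3 (orange) against distance in bp from the annotated start of 5 genes, with each copy of the E-box CACGTG as a black tick. Every gene has a summit within 105 bp of its start in the lines where it has an entry, and the ticks, 2 for each gene and 6 for LAMP1, lie within 200 bp of the start.

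The E-box CACGTG stood in the window of all 5 members with a summit at the start and of none of the 3 others, CD63, NPC1 and TPCN1. It stood in 8.82% of all 15842 windows, taking 1 window per gene. CLCN6, CLCN7, MCOLN1 and CLN3 held 2 copies each and LAMP1 held 6. No other gene with a window held as many as LAMP1. The upstream 4 of these are spaced 16, 17 and 17 bp apart, and the others lie 114 and 27 bp further on. CD63 has 8 annotated starts, and the window of 1 inner start, at position 55729009, held 1 copy, 180 bases before it, where no PRMT5 entry lay.

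Longer forms of the element were also present. GTCACGTG, searched on both strands and containing the E-box, was in the windows of 5 of the 8 members and in 3.45% of all windows. TCACGTGA, which also contains it, was in those of CLCN6, MCOLN1, CLN3 and LAMP1, 4 of 8, and in 1.40% of all. The CLCN7 window held 1 copy of the first and none of the second. A match is a match of letters only, and whether a protein binds there was not measured.

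Summits lay close to the E-boxes. Distance was taken from the summit at the start to the centre of the nearest copy. In LNCaP it was 15.5 bp for CLCN7, 18.5 bp for MCOLN1, 27.5 bp for CLCN6, 28.5 bp for CLN3 and 42.5 bp for LAMP1. In PC3 it was 16.5 bp for MCOLN1, 41.5 bp for LAMP1, 51.5 bp for CLN3 and 87.5 bp for CLCN6. Over all genes with both a summit within 500 bp of the start and an E-box, the median was 29 bp in LNCaP (132 genes) and 33.5 bp in PC3 (102 genes). In each line members lay on both sides of the median, which includes them.

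E-boxes were frequent in the windows of all genes with a PRMT5 summit within 500 bp of the start, so these genes do not stand alone. The sequence at summits away from a promoter window was not searched. Of 206 genes with an LNCaP PRMT5 summit within 500 bp of the start, 132 held CACGTG in the window, 64.1% (exact 95% binomial interval 57.1 to 70.6). Of 153 such genes in PC3, 102 did, 66.7% (58.6 to 74.1). Of 24 genes with a PC3 METTL3 summit this close, 2 did, 8.33% (1.03 to 27). Intervals cover counting error only, and neighbouring genes can share a summit. GTCACGTG was in 52.9% and 56.2% of the LNCaP and PC3 PRMT5 windows.

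Other motifs differed by fewer percentage points from their shares in all windows. The GC box GGGCGG was in 82.0% (LNCaP) and 76.5% (PC3) of these PRMT5 windows and in 58.3% of all, and in 3 of the 5 members with a summit and 2 of the 3 without. The NF-Y box CCAAT was in 55.8% and 47.1%, beside 36.4% of all, and among the members only in TPCN1. The AP-1 site TGANTCA was in 3.88% and 6.54%, beside 5.70%, and in no member. TGACGTCA, TATAAA and the ETS site CCGGAAG were in 2.91%, 1.94% and 20.9% of the LNCaP windows, beside 2.56%, 9.75% and 14.2% of all, and the ETS site was in CLCN6 and CLN3. Palindromes with the same bases as the E-box in another order were searched after these values were seen. GACGTC was in 7.28% of the LNCaP windows and 6.43% of all, CTCGAG in 5.83% and 4.77%, and GTCGAC in 2.43% and 1.63%.

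The windows with summits were somewhat richer in G and C, with a median of 67% in LNCaP and 66% in PC3, against 62.7% over all. Among windows of at least 60% G and C alone, CACGTG was in 65.7% (LNCaP) and 67.5% (PC3) of those with a PRMT5 summit and in 10.7% of all. The members spanned a similar range with and without a summit, from 57.7% for CLN3 to 75.3% for CLCN7 among those with a summit, and from 56% for CD63 to 69.7% for NPC1 among those without.

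**Figure D4:**
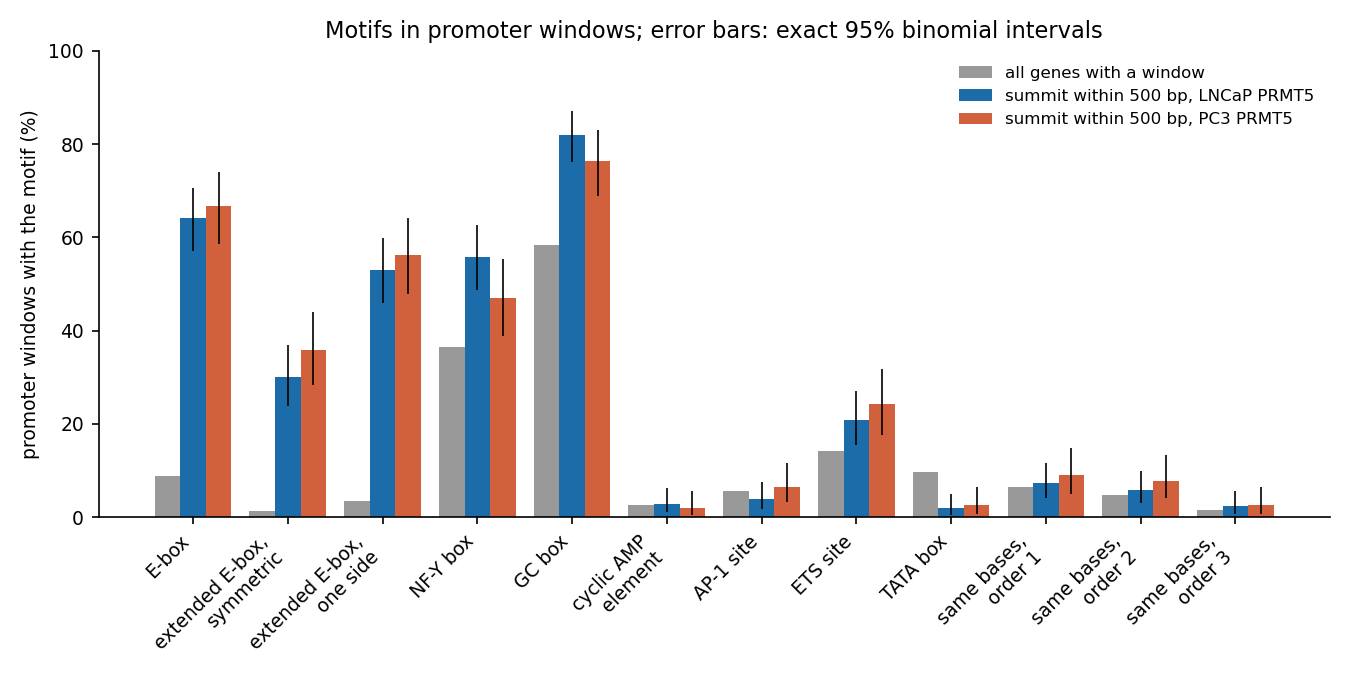
Percent of promoter windows that hold each motif, for all 15842 genes with a window (grey) and for genes with a PRMT5 summit within 500 bp of the start in LNCaP (blue, 206 genes) and PC3 (orange, 153 genes), with exact 95% binomial intervals. The E-box stands at 8.82%, 64.1% and 66.7%, and the 3 palindromes of the same bases stay below 10% in all groups.

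The share of genes with a PRMT5 summit differed with the number of E-boxes in the window. With none it was 0.512% in LNCaP and 0.353% in PC3, over 14444 genes. With 1 copy it was 5.53% and 4.09%, over 1248 genes. With 2 copies, as in CLCN6, CLCN7, MCOLN1 and CLN3, it was 36.5% and 31.0%, over 126 genes. With 3 or more, as in LAMP1, it was 70.8% and 50% of 24 genes. These shares describe these lists and were not tested.

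**Figure D5:**
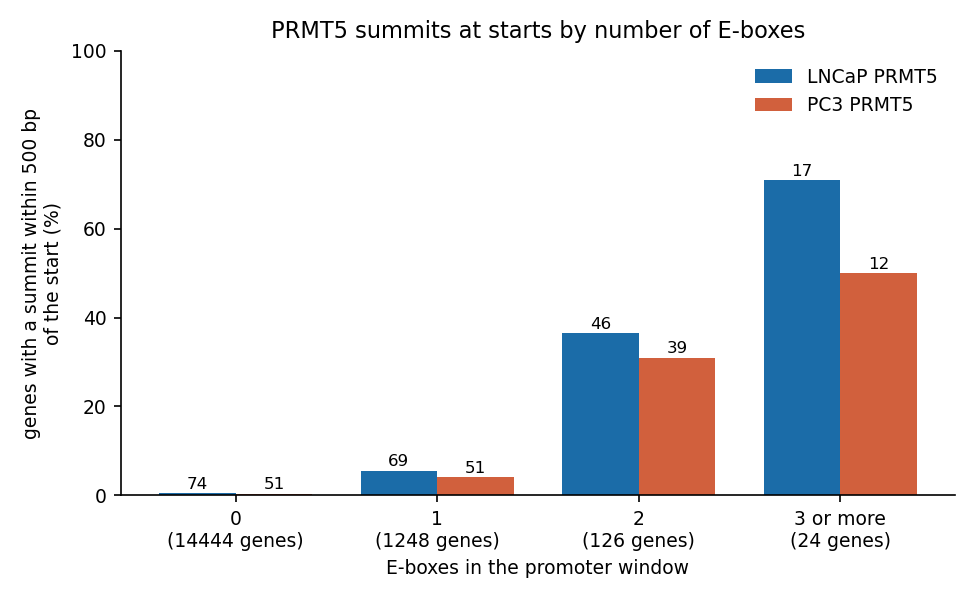
Percent of genes with a PRMT5 summit within 500 bp of the start, by the number of E-boxes in the 300-base window, for LNCaP (blue) and PC3 (orange), with the number of such genes above each bar. The bars go from 0.512% and 0.353% with no copy to 70.8% and 50% with 3 or more.

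Other lysosomal membrane genes mostly lacked PRMT5 entries. Of 75 further channels, transporters and membrane proteins, 74 were matched, and SLC22A18 was not. PRMT5 entries lay at 6 of the 74 in LNCaP, 8.11%, beside 3.08% of all genes, and at 6 in PC3, beside 4.59%. Entries of METTL3 lay at 0 in LNCaP and at 6 in PC3, 8.11%, beside 11.6%. SPNS1, a lysosomal lysophospholipid transporter, had PRMT5 entries in both lines, with folds of 12.1 in LNCaP and 11.8 in PC3 and summits 208 and 19 bp from its start. PLD3, a lysosomal membrane-bound nuclease, also had them in both, with folds of 17.3 and 10.3 and summits at 199 and 109 bp. Each of these windows held 2 E-boxes. Of the 65 with a window, 5 had a PRMT5 summit within 500 bp of the start in either line, and 3 of these, SPNS1, PLD3 and MFSD1, held an E-box. Of the 60 without such a summit, 4 did, namely ABCB6, ABCB9, CD164 and CLCN4, so an E-box also stood in windows with no summit within that distance. CD164 had an LNCaP summit just outside it, at 552 bp, with a fold of 11.3.

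Genes with a fold pattern like that of PIP4P1 and LAMP1 were sought by the Euclidean distance of log2 fold over the 4 lists, with 0 where a gene had no entry, among 3350 genes with an entry in at least 1 list. Nearest to PIP4P1 were GTPBP6 at a distance of 0.37 on the log2 scale, with folds of 61.5 in LNCaP PRMT5 and 8.06 in PC3 PRMT5, GET4 at 0.59 and SUN1 at 0.60, the last 2 with the same LNCaP fold of 45.5. Nearest to LAMP1 were ODAD3 at 0.28, THRAP3 at 0.33 and VPS33A at 0.39, with PC3 PRMT5 folds of 15.2, 14.2 and 19.8. None of the 6 had a METTL3 entry.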

How the data were processed

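In-situ chromatin profiling libraries of LNCaP and PC3 were used as 4 deposited peak lists, each from 1 library against the control of its line. The submitters' processing notes name bcl2fastq 2.17, Trimmomatic 0.33, Bowtie 1.1.1, MACS2 2.1.0, ChIPseeker (no version given) and hg38. Caller settings and the handling of duplicates and read shifts are likewise not given in the sources used here. Per peak, the authors deposited a score, a fold (a ratio over the control), −log10 p and −log10 q, and the summit; the score was not used. Depth is unknown.

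Only entries on the 22 autosomes, X and Y entered: for PRMT5 980 in LNCaP and 1661 in PC3, for METTL3 173 in LNCaP and 7453 in PC3. Gene positions came from RefSeq GRCh38.p14, and starts and strands from its promoter windows, using for each gene the window at its outermost start. Motifs were searched on both strands with Python 3.11.15 and pandas 2.3.3, intervals came from scipy 1.17.1, and gene assignment and motif search were tested on simulated data. The members and gene lists were chosen with earlier results of these data known. All members are named. Of other lysosomal membrane genes, those with PRMT5 entries in both lines are named by rule, and MFSD1, SLC22A18, ABCB6, ABCB9, CD164 and CLCN4 were named after their values were seen. With 1 library per group no test between groups was made. No genome sequence, exon or intron annotation was used here. Alternatives changed the window, q, fold, overlap and motif.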

Additional observations from a re-analysis of the deposited data

How the results depend on the processing

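No paired analysis was possible because each group had 1 library. The counts of members with an entry, with overlapping entries, with a summit at the start and with an E-box stayed within 1.5 times their value under all alternatives tried (windows of 1, 5 and 10 kb, a −log10 q of at least 3, a fold of at least 5, entries near the start only, any base of an entry, 50% overlap, 250 bp or 1 kb around the start, longer motifs). METTL3 counts were 0 in each. The median of the members' highest PRMT5 folds was 12.7 in LNCaP and 6.77 in PC3 with entries within 3 kb of the gene start only. That setting leaves out PIP4P1, for which no start was matched, and in PC3 also CD63. With a 1-kb window, which leaves out CD63, the PC3 median was 7.33. With all annotated starts, an alternative chosen after seeing the data, 6 members held CACGTG, CD63 being added. Of 80 single-gene folds under alternatives, 77 were unchanged, and the others were MCOLN1 in PC3, 6.21 near the start only or with a 1-kb window, and LAMP1 in LNCaP, 8.98 with a 10-kb window.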
